A study of Mus musculus with 18 samples.

Results

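The mouse histone genes were taken as the protein-coding genes of the GENCODE M21 annotation (build GRCm38) whose symbol starts with Hist1h, Hist2h, Hist3h or Hist4h, or with H1, H2 or H3 followed by a or f. The rule found 100 of 21951 protein-coding genes. Of these, 67 carry Hist1h to Hist4h symbols and are called clustered genes here, and 33 are other histone genes, among them 18 H2al genes. The data were lists of peaks, stretches of the genome in which sequenced RNA fragments piled up, from 18 RNA libraries made from the liver of mice aged 8 to 9 days. Total RNA was split by treatment into 3 fractions: untreated RNA (Input), RNA digested with RNase A and T1 alone (RNase only), and RNA digested in the presence of recombinant MDA5 that lacks its CARD domains (MDA5-protected). Each fraction was made from 2 genotypes in triplicate. The control mice were Mavs-/- (their library titles read wild-type, but their genotype label is Mavs-/-) and the mutants were Adar-/-; Mavs-/-, called Adar-deficient below. Mavs was thus missing in both groups, so no sample had an intact MAVS protein, the adaptor through which MDA5 signals.

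Histones package DNA. Genes of the clusters supply the core histones H2A, H2B, H3 and H4 and the linker histone H1 while DNA is being copied, and their mRNAs are unusual. They have no introns as a rule, and they end in a short hairpin, the histone stem-loop, in place of a poly(A) tail. Stem-loop binding protein holds this hairpin, and the U7 small nuclear RNP directs the cut just behind it. The other histone genes include the replacement variants (H3.3 from H3f3a and H3f3b, H2A.Z from H2afz and H2afv, macroH2A from H2afy) and the linker histone H1.0 (H1f0), which are made outside S phase too and mostly from ordinary polyadenylated mRNAs. The H2al genes encode H2A variants of the testis.

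The stem-loop is the mark that sets these mRNAs apart, so a few are shown first, from the GENCODE M21 reference transcripts. The search looked, on the transcript strand only, for GG, any 2 bases, CTT, any base, T, any base, AG, any 2 bases and CC in the first 300 bases after the stop codon. Each line gives the 16 matching bases in capitals and up to 5 bases on either side in lower case.
Hist1h4d: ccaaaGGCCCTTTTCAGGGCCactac
Hist1h1c: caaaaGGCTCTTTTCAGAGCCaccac
Hist1h3e: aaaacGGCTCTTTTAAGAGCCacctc
Hist1h4a: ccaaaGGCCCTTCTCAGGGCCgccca
Hist1h3g: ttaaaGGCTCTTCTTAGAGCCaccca
H2afx: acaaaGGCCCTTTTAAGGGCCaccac
The capitals of Hist1h4d lie at chr13:23581950-23581965 (plus strand), 36 bases after the stop codon. Those of Hist1h1c lie at chr13:23739512-23739527 (plus strand), 24 bases after it. Those of Hist1h3e lie at chr13:23561903-23561918 (minus strand). The most frequent form, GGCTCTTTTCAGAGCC, was found in 25 genes, and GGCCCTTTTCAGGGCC, found in 7, belonged to H4 genes only. Among clustered genes with at least 16 annotated bases after the stop codon, 45 of 52 (86.5%) held the motif. The search followed spliced transcripts, so it did not read introns behind a stop codon, as in Hist1h2bc. Among the other histone genes 1 of 22 did, H2afx, which encodes H2A.X. Over all protein-coding genes the motif was present in 54 of 19544 (0.276%). The other 15 clustered genes are annotated to the stop codon or a few bases past it, so the motif could not be looked for in them. A polyadenylation signal (AATAAA or ATTAAA in the last 50 bases of the reference transcript) stood in 25.4% of clustered genes, in 57.6% of other histone genes and in 64.9% of all protein-coding genes.

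A peak was counted for a gene where it overlapped an exon on the gene's own strand. The lists held 82353 peaks in all: 4326 to 8948 per library in the Input, 3150 to 6094 in the RNase only fraction and 1180 to 2868 in the MDA5-protected fraction. The files give no read counts, so sequencing depth could not be set beside the values and no counting interval could be given. In the digested libraries the authors called peaks against Input, and the RNase only lists bear the trace of it. An end of an RNase only peak lay directly beside an end of an Input peak of the same genotype and number 43 to 201 times per library, against 0 to 8 times for an Input of the same genotype with another number. For MDA5-protected peaks these counts were 1 to 41 and 0 to 4. The MDA5-protected list of Adar-deficient replicate 1 did not show the trace, with 1 such end for its own number and 2 for each other number. As digested peaks were called over Input, a gene without one had no enrichment that passed the authors' calling thresholds. It may be enriched below them, and need not be without RNA. All 9 hepatocyte markers found in the annotation had a peak in each of the 6 Input libraries. Adar itself had an own-strand peak in its second exon in Adar-deficient Input replicates 2 and 3 and in no Mavs-/- library. Which part of the gene the mutants lack was not given in the sources used here, so this peak checks no label.

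In the Input, clustered histone genes were called more often than protein-coding genes at large. A peak in at least 2 of 3 libraries was found for 33 of 67 clustered genes in Mavs-/- and 21 of 67 in Adar-deficient liver. Over all protein-coding genes 7.93% and 12.4% passed the same rule. Of the other histone genes, 4 of 33 passed in each genotype. Over all 18 libraries 43 of the 100 genes had any peak, 36 of them clustered, beside 27.8% of all protein-coding genes. The H4 family was the best covered, with 10 of 13 genes, followed by H3 with 8 of 12, H2B with 11 of 18, H1 with 3 of 6 and H2A with only 4 of 18 genes. The cluster on chromosome 13 (Hist1) gave 33 of 54 genes. The 10 Hist2 genes on chromosome 3 gave none, while both Hist3 genes on chromosome 11 and the single Hist4h4 on chromosome 6 had a peak.

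Strength was read as the area percentile, the rank of a gene's strongest peak by area (the caller's summed −log10 p over the peak) among all peaks of its library, with 100 as the strongest. Hist1h1c, which encodes the linker histone H1.2, led the clustered genes. Its percentiles in the Input were 97.3, 98.3 and 99.1 in Mavs-/- and 98.1, 98.8 and 98.3 in Adar-deficient liver, and the genotypes overlapped. Hist1h3e, an H3 gene, stood at 95.3, 96.3 and 97.9 against 92.7, 92.0 and 91.8. Hist1h4k and Hist1h4d, both H4 genes, stood between 85.0 and 96.7 in the 6 libraries. The median percentile of the clustered genes with a peak ran from 69.4 to 89.3 over the 6 Input libraries, and that of the other histone genes from 33.9 to 76.6. For all other protein-coding genes it lay between 56.0 and 60.8. Within a library the clustered median exceeded that of the other histone genes by 22.9 on average (two-sided exact sign-flip test over 6 libraries, p = 0.0312, the smallest it can give, 0.0708 after Benjamini-Hochberg adjustment over 34 tests).

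The farthest Input peaks of most clustered genes with the motif stopped at the stem-loop, though not every peak reached it. In 28 of the 29 clustered genes with the motif and an Input peak, the farthest-reaching peak ended after the stop codon and 10 to 37 bases before the last base of the stem-loop, with a median of 14 bases before it. Counted peak by peak, 89 of the 136 Input peaks of the 29 genes (65.4%) ended within 20 bases of that last base. The earliest end lay 300 bases before it. The annotation runs on for more than 100 bases behind the stem-loop in 16 of these genes, and in 15 of them no Input peak went past it. Hist1h4d, for example, is annotated for 770 bases behind its stem-loop. Its peaks ended 11 to 26 bases before the last base of the stem-loop in all 6 Input libraries. Hist1h1d, the gene of H1.3, is annotated for 4884 bases behind the stem-loop, and its peaks ended 12 to 42 bases before the stem-loop's last base. For Hist4h4, with 2445 annotated bases behind the stem-loop, the ends lay 14 to 21 bases before it in 5 libraries.

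**Figure D1:**
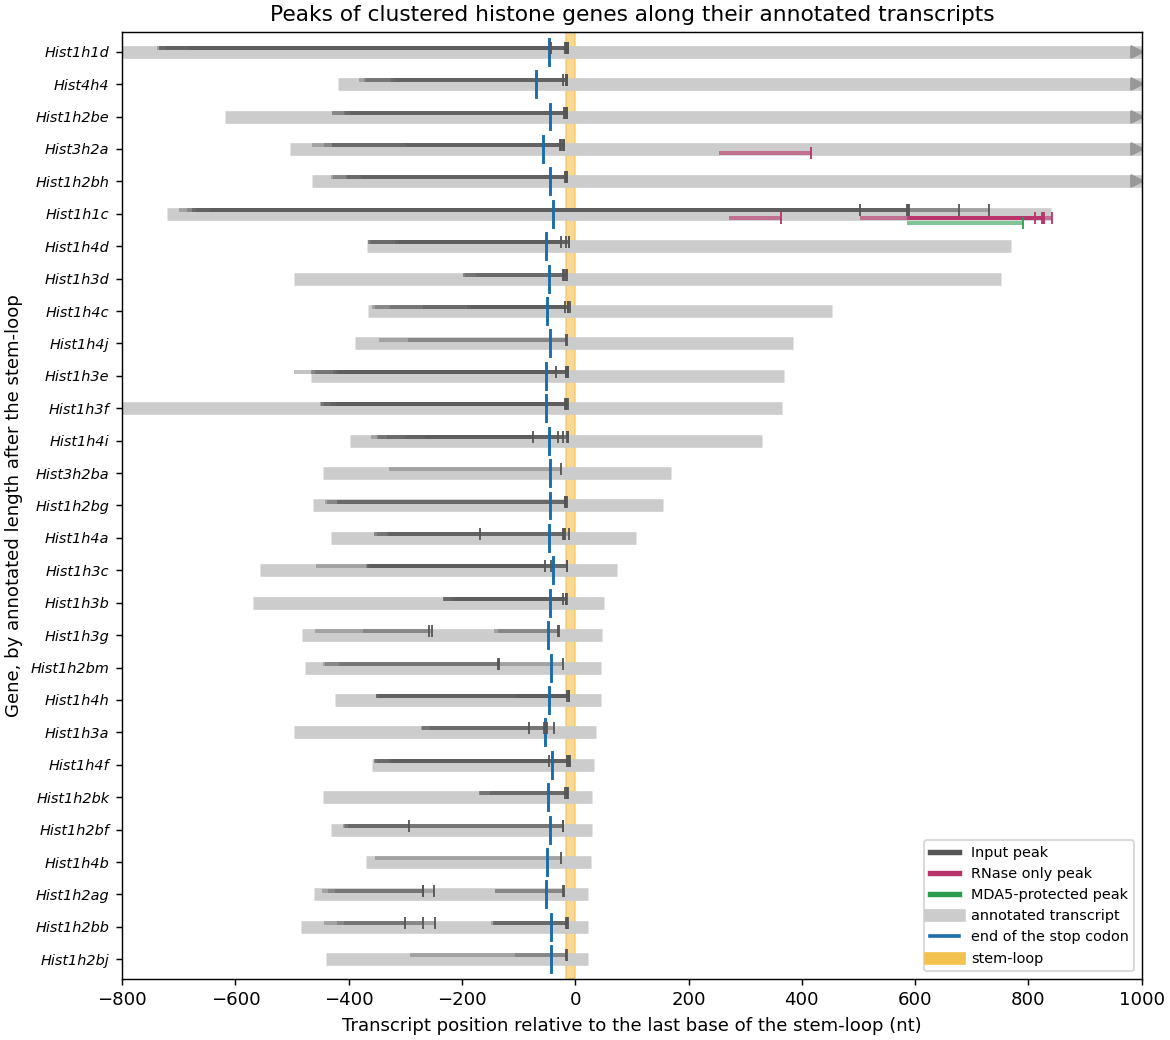
Peaks of the 29 clustered histone genes with the stem-loop motif and an Input peak, drawn along each annotated transcript (grey bar) in nt from the last base of the stem-loop (yellow band); peaks of all libraries of a fraction are laid over each other, small ticks mark their downstream ends, blue marks the end of the stop codon, and arrowheads mark transcripts that run past the axis. In every gene but Hist1h1c the Input peaks (dark) end at or before the stem-loop. RNase only peaks (pink) were found in Hist1h1c and Hist3h2a only, and an MDA5-protected peak (green) in Hist1h1c only, all behind the stem-loop.

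No motif was found in 7 clustered genes with an Input peak. Of these, 5 (Hist1h2af, Hist1h2ai, Hist1h2bl, Hist1h3h and Hist1h4k) are annotated to within 1 base of the stop codon, and their farthest peaks ran past the annotated end, to 9 to 32 bases after the stop codon. In Hist1h1a, searched over 48 annotated bases without a match, the farthest peak ended 23 bases after the stop codon. The remaining gene, Hist1h2bc, is described below. Its first exon ends 9 bases after the stop codon. The search then went on in its second exon, so the intron where its Input peaks end was not searched. Over all clustered genes 83.5% of the 170 Input peaks ended 0 to 100 bases past the stop codon, against 11.1% of the 45 Input peaks of other histone genes. The share was higher for clustered genes in 6 of 6 Input libraries, by 44.8 to 85.7 percentage points. The median end past the stop codon was lower for clustered genes in 5 of 6 libraries, with a mean difference of −127 nt and a range of −304.5 to 77 nt. The stop codon, the stem-loop and the 100-base window were chosen after the peak positions had been seen, so these values are a description and no test is given. Measured to the annotated transcript end, the median distance was 146 to 360 nt for clustered and 688 to 1154 nt for other histone genes, and 1113 to 1320.5 nt for all other protein-coding genes. The clustered median was nearer to the end, by a mean difference of −796 nt (exact sign-flip test, p = 0.0312, adjusted 0.0708). This distance is in bases and was not adjusted for transcript length. By relative centre of the peaks (0 at the transcript start, 1 at its end), clustered minus other was 0.0886 (exact sign-flip p = 0.0938, adjusted 0.148). With equal numbers of peaks per library that value turned to −0.0407. The share of peaks that came within 50 nt of the annotated end was 19.0% to 34.3% for clustered and 0% to 25% for other histone genes.

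Hist1h1c was the exception. Its Input peaks covered the coding region, crossed the stem-loop and ended 502 to 731 bases behind it in the 6 libraries. The reference transcript ends 840 bases behind the stem-loop. Hist1h1c thus had Input peaks over RNA that lies behind the stem-loop, in both genotypes alike.

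Few histone genes had a peak after digestion, as the plot of genes with a peak shows. Digested peaks were called over Input, so the counts and tests below do not measure RNA lost on digestion. Over all protein-coding genes the mean number with a peak was 2375.5 in Input, 1230 in RNase only and 208 in MDA5-protected libraries. The clustered genes with a peak numbered 32, 33 and 35 in the Mavs-/- Input and 28, 21 and 15 in the Adar-deficient Input. In the RNase only fraction they numbered 2, 2 and 1 against 3, 1 and 2. In the MDA5-protected fraction they numbered 0, 0 and 0 against 0, 1 and 0. RNase only libraries held fewer clustered genes than Input libraries, with a mean difference of −25.5 genes and no overlap between the fractions (two-sided exact permutation test over 6 against 6 libraries, p = 0.00216, the smallest it can give, adjusted 0.0123). The difference of MDA5-protected from Input libraries was −27.2 genes (p = 0.00216 by the same exact test), and that from RNase only libraries −1.67 genes (exact p = 0.00649, adjusted 0.0315). With libraries paired by number, that last call was lost (−1.67 genes, exact sign-flip p = 0.0625). Of the other histone genes, 5, 5 and 5 against 4, 5 and 4 had a peak in the Input, 5, 2 and 0 against 3, 4 and 4 after RNase alone, and 0, 1 and 0 against 0, 2 and 2 with MDA5. Their difference of −1.67 genes between RNase only and Input did not pass the test (exact permutation p = 0.0758, adjusted 0.129). The difference of −3.83 genes between MDA5-protected and Input did (exact permutation p = 0.00216, adjusted 0.0123). A peak in at least 2 of 3 RNase only libraries was found for 4 of 100 histone genes in Mavs-/- and 6 of 100 in Adar-deficient liver, beside 4.05% and 5.03% of all protein-coding genes.

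**Figure D2:**
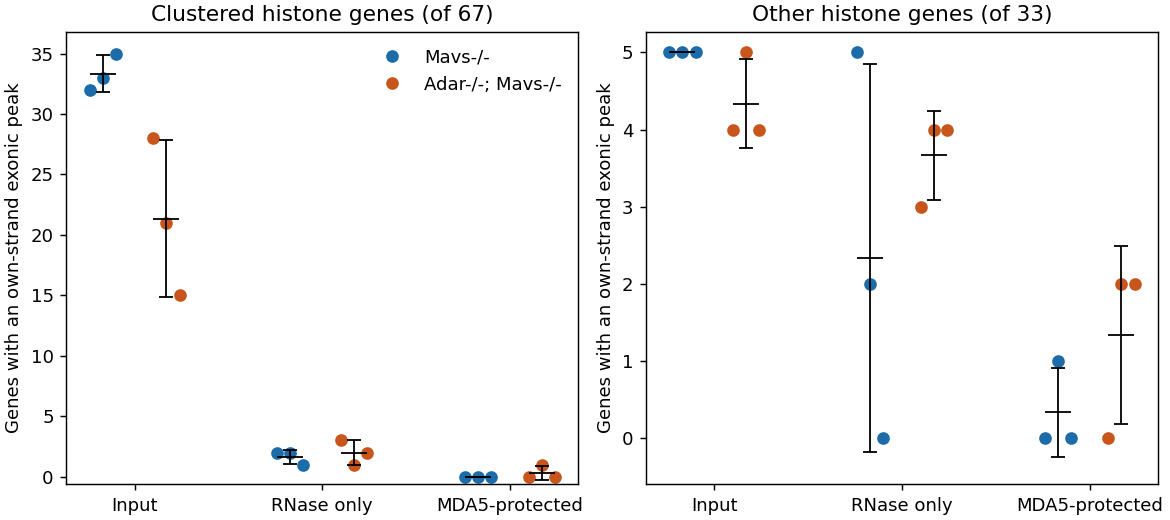
Number of clustered (left, of 67) and other (right, of 33) histone genes with an own-strand exonic peak in each library, by fraction on the horizontal axis and genotype by colour; points are libraries, bars the mean ± SD of 3 libraries, and the vertical axes differ in range. Clustered genes fall from 15 to 35 in the Input to at most 3 after digestion, and other histone genes from 4 or 5 to between 0 and 5.

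The share of clustered genes with a peak exceeded that of other histone genes by 26.7 percentage points in the Input (exact sign-flip test, p = 0.0312, adjusted 0.0708). This difference rests in part on the 18 H2al genes, none of which had a peak in any library. Without them it was 9.68 percentage points (exact p = 0.125). In the RNase only fraction the difference was −6.35 percentage points (exact p = 0.0625).

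Digested peaks were also set against the genes seen in Input. They were called over Input, where clustered genes ranked higher than other protein-coding genes (median percentiles of 69.4 to 89.3 against 56.0 to 60.8). The shares below may be lowered by this calling, so they do not measure RNA lost on digestion. The part of the calling was not tested. Of the genes with an Input peak in at least 2 of 3 libraries of a genotype, 9.89% in Mavs-/- and 11.4% in Adar-deficient liver had an RNase only peak in at least 2 of 3 libraries over all protein-coding genes. Of the clustered genes, 2 of 33 and 2 of 21 did, and in each genotype they were Hist1h1c and Hist1h2bc. Library by library, the clustered share minus that of other protein-coding genes was between −10.4 and −0.392 percentage points, below 0 in 6 of 6 libraries (mean −5.68, exact sign-flip test, p = 0.0312, adjusted 0.0708). With only peaks of area 1000 or more, the mean turned to 2.40 percentage points (exact p = 0.125). Of the 4 other histone genes with such an Input peak, 0 to 3 had a peak in each RNase only library, beside 6.64% to 16.4% of other protein-coding genes. Their share was higher by 24.5 percentage points on average, which did not pass the test (exact sign-flip p = 0.0625, adjusted 0.112). In at least 2 of 3 MDA5-protected libraries 0 of 37 and 0 of 25 histone genes with such an Input peak were found again, beside 1.49% and 1.58% of all protein-coding genes.

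**Figure D3:**
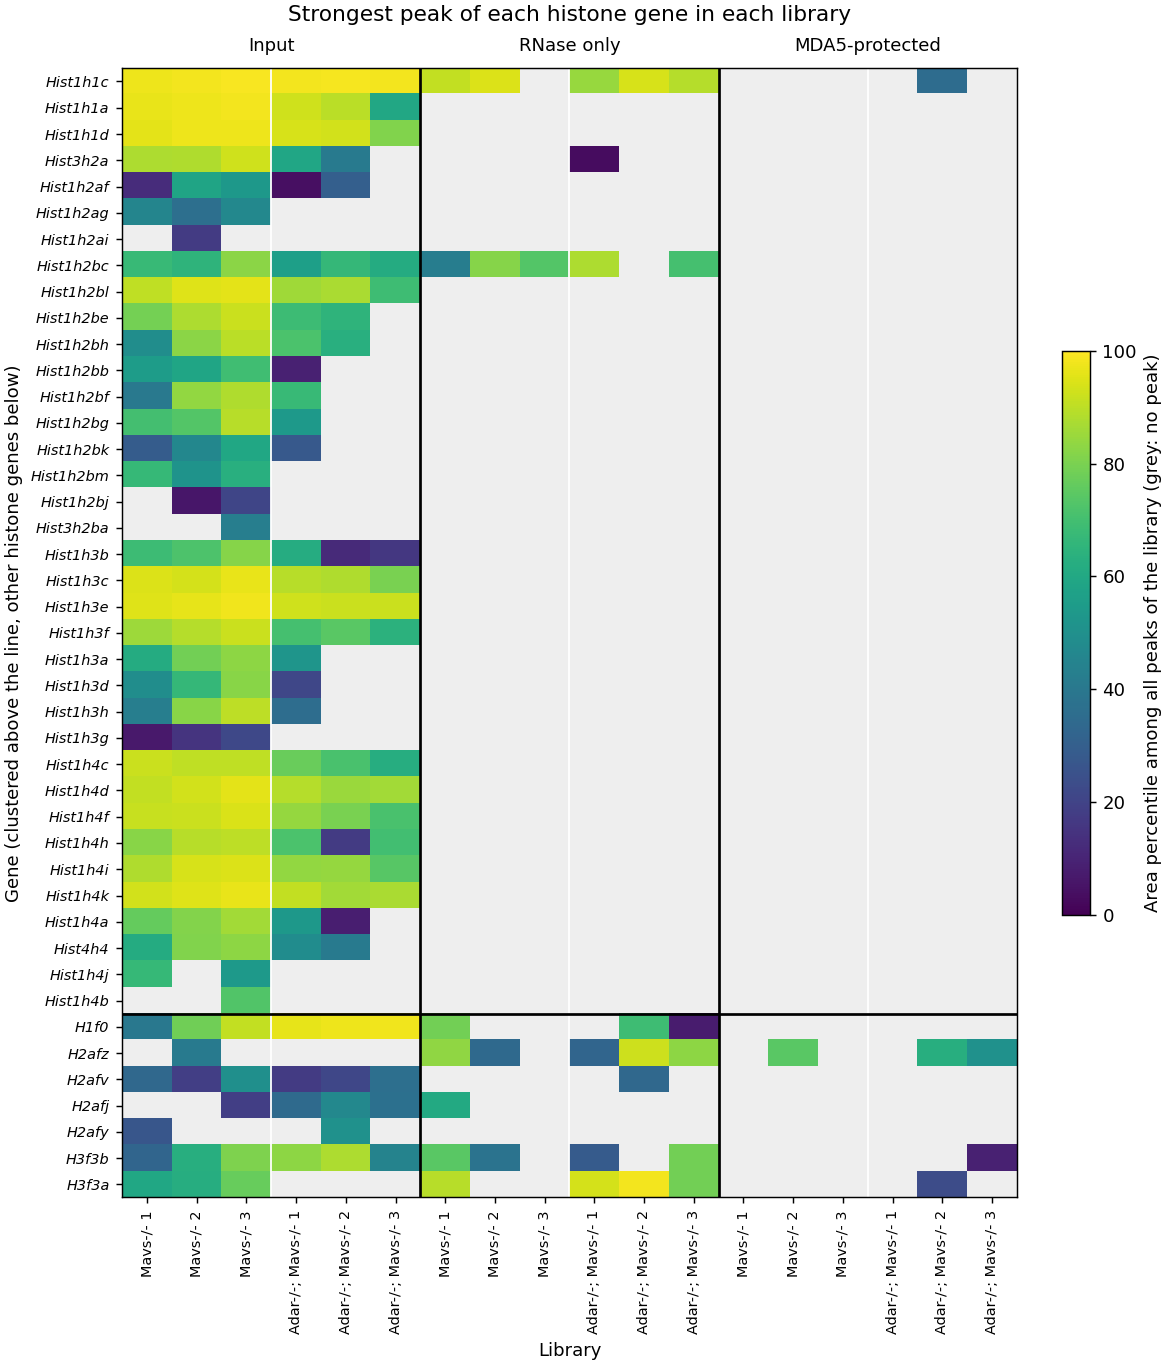
Area percentile of the strongest own-strand exonic peak (colour, 0 to 100; grey is no peak) for the 43 histone genes with any peak (rows) in the 18 libraries (columns, grouped by fraction and then genotype). Clustered genes fill the Input block and nearly vanish from the digested blocks, where Hist1h1c and Hist1h2bc remain, while several other histone genes below the line have peaks in both Input and RNase only libraries.

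The clustered genes with a digested peak were 3, Hist1h1c, Hist1h2bc and Hist3h2a, and all of these peaks lay behind the stop codon by 300 to 881 bases. Hist1h1c had an RNase only peak in 5 of 6 libraries (all but Mavs-/- replicate 3), with area percentiles of 90.8 and 94.8 in Mavs-/- and 84.6, 93.9 and 88.7 in Adar-deficient liver. The strongest peak ended within 29 bases of the annotated transcript end in all 5, for example at chr13:23740118-23740338 in Mavs-/- replicate 1. In 4 of the 5 libraries it began at the base after the last of the Input peak of the same number, and in Adar-deficient replicate 1 it overlapped that peak. Adar-deficient replicate 2 also had an MDA5-protected peak there, chr13:23740113-23740318, at percentile 35.4.

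Hist1h2bc, an H2B gene, is annotated with a second exon 7554 bases downstream of the first. Its Input percentiles were 67.2, 65.0 and 82.7 in Mavs-/- and 56.5, 66.7 and 61.4 in Adar-deficient liver, and the genotypes overlapped. Its 6 Input peaks lay over the first exon and ended 16 to 35 genomic bases past the stop codon, up to 26 bases into the intron. Its RNase only peaks lay in the second exon (chr13:23692176-23692908), in all 3 Mavs-/- and in 2 Adar-deficient libraries, at percentiles of 42.4, 81.8 and 73.1 against 87.6 and 70.5. No Input library had a peak in that exon, so that Input and RNase only peaks of this gene came from separate places. Hist3h2a had 1 weak RNase only peak, at percentile 3.41 in Adar-deficient replicate 1, 417 bases behind its stem-loop.

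Among the other histone genes, RNase only peaks of H1f0 and H2afz reached the 3′ end. H1f0 is a gene of 1 exon without the stem-loop motif. Its first Input peak began within the first 50 bases of the transcript or before it in each library. Its RNase only peaks were found in Mavs-/- replicate 1 (78.8) and Adar-deficient replicates 2 and 3 (68.8 and 7.76), and the last of them ended 4 to 10 bases before the annotated end. H2afz had an Input peak in Mavs-/- replicate 2 only, at percentile 41.1. After RNase alone it had peaks in its last exon at 83.3 in Mavs-/- replicate 1 and at 32.5, 92.2 and 83.0 in Adar-deficient liver. Those of Adar-deficient replicates 2 and 3 ended 3 and 2 bases before the transcript end.

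H3f3a and H3f3b encode the same protein, H3.3, from different mRNAs. H3f3b had RNase only peaks in 4 libraries, with percentiles between 28.8 and 78.7 for the strongest, spread over its last exon between 142 and 1045 bases past the stop codon. H3f3a had them in Mavs-/- replicate 1 (89.3) and in all 3 Adar-deficient libraries (93.4, 98.4 and 78.9), all within chr1:180802580-180803062, over the end of its reference transcript or behind it, in exons of other annotated H3f3a transcripts. H2afj, an H2A variant gene, and H2afv each had 1 RNase only peak, and H2afy had none and Input peaks at 26.8 and 50.5 in 1 library of each genotype.

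**Figure D4:**
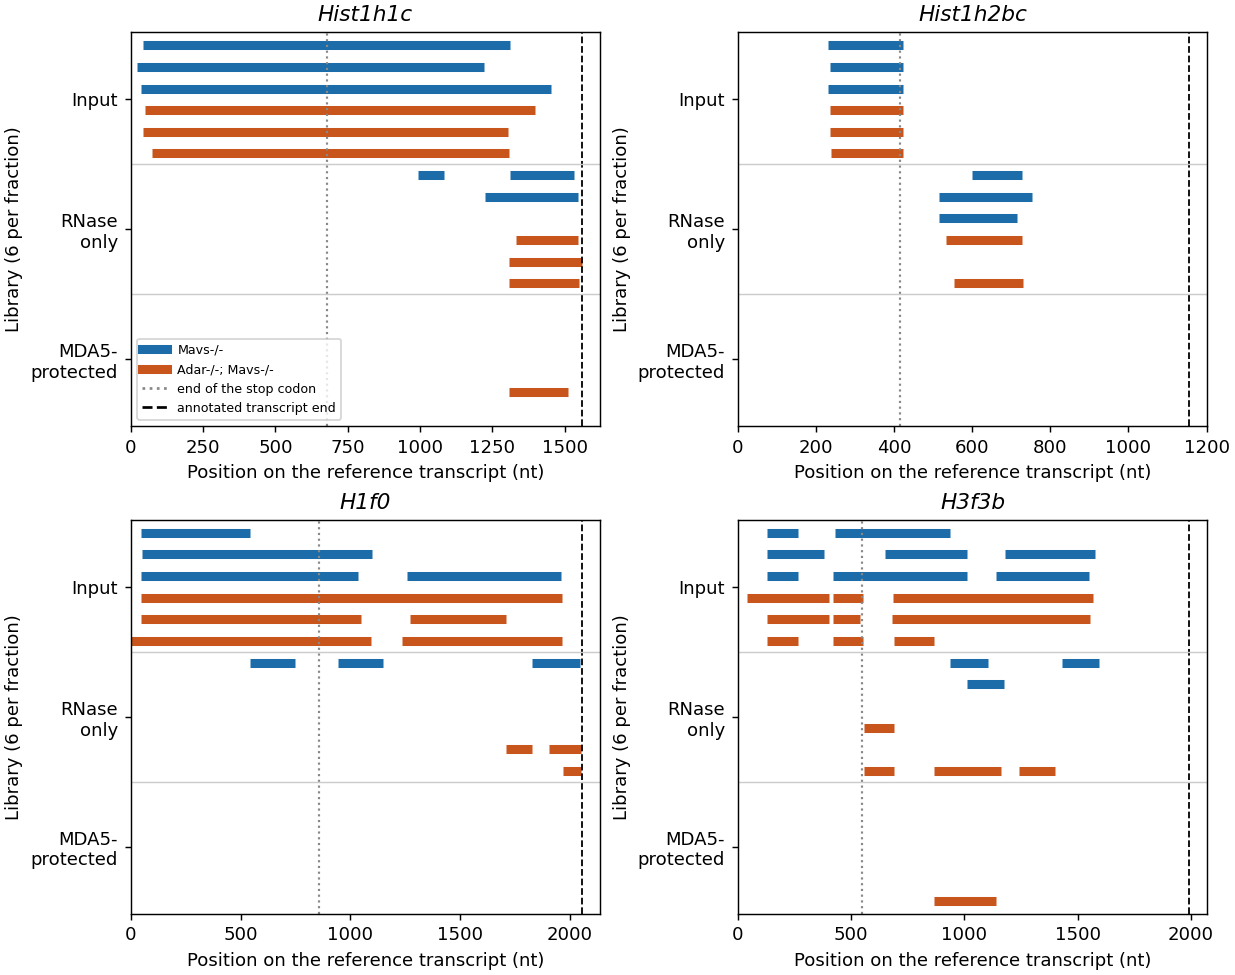
Peaks of Hist1h1c, Hist1h2bc, H1f0 and H3f3b along the reference transcript (horizontal axis in nt), with the 6 libraries of each fraction as rows (blue Mavs-/-, orange Adar-/-; Mavs-/-), the end of the stop codon dotted and the annotated transcript end dashed. The strongest RNase only peaks of Hist1h1c, and the last of those of H1f0, end within 29 bases of the transcript end, those of Hist1h2bc lie in its second exon where no Input peak lies, and those of H3f3b are spread over its last exon; peak positions inside an intron are drawn at the exon edge.

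Over all histone genes the median relative centre of the peaks (0 at the transcript start, 1 at its end) was 0.327 to 0.452 in the 6 Input libraries and 0.546 to 0.890 in the 5 RNase only libraries with at least 3 peaks. The fractions did not overlap, and the difference was 0.256 (exact permutation test over 5 against 6 libraries, p = 0.00216, adjusted 0.0123). All other protein-coding genes moved likewise, by 0.280 (exact permutation p = 0.00216), so the shift towards the 3′ end was not particular to histone genes. The distance in bases to the transcript end did not show it over all histone genes, with a difference of 40.4 nt between RNase only and Input (exact permutation p = 0.667). For the other histone genes alone the distance to the transcript end differed by −604 nt after RNase, over 3 RNase only and 6 Input libraries (exact permutation p = 0.0238, adjusted 0.0708). Of the 44 histone peaks in digested libraries, 16 had an end directly beside an Input peak of the same number and 3 overlapped one.

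MDA5-protected peaks were rare among histone genes. A peak in at least 2 of 3 libraries was found for 0 of 100 genes in Mavs-/- and 1 of 100, H2afz, in Adar-deficient liver, where 0.679% and 0.911% of all protein-coding genes passed. The H2afz peaks lay at chr3:137864871-137865047 in Mavs-/- replicate 2, at percentile 74.4, and at chr3:137864877-137865035 in Adar-deficient replicates 2 and 3, at 62.6 and 50.8. This place lies between the first and second exons of the reference transcript and touches an exon only of another annotated H2afz transcript. Mavs-/- replicate 1 also had an own-strand MDA5-protected peak there, chr3:137864854-137864943 at 5.52, which touched no exon and was not counted. With it, Mavs-/- replicates 1 and 2 and Adar-deficient replicates 2 and 3 had a peak at this place. The same stretch had an RNase only peak in Mavs-/- replicate 2, at percentile 34.3, and no Input peak in any library. Adar-deficient replicate 2 had a second MDA5-protected peak, in the last exon of H2afz, at 6.86. H3f3a and H3f3b had an MDA5-protected peak in 1 Adar-deficient library each, at 23.2 and 9.00. The number of histone genes with such a peak had a mean difference of 1.33 between genotypes, Adar-deficient higher, which did not pass the test (exact permutation p = 0.40). The test of 3 against 3 libraries cannot go below 0.10.

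Fewer clustered genes had a peak in the Adar-deficient than in the Mavs-/- Input, with a mean difference of −12 genes, and the groups did not overlap (33.3 ± 1.53 against 21.3 ± 6.51, SD, n = 3, exact permutation p = 0.10, the smallest 3 against 3 can give, adjusted 0.148). This was against the direction of the rest of the list, since 1463 to 2442 protein-coding genes had a peak in Mavs-/- and 2441 to 3066 in Adar-deficient Input libraries. With a gene without a peak set to 0, the area percentile of every Mavs-/- library exceeded that of every Adar-deficient library in 26 of 36 clustered genes with any Input peak. The same held for 3.56% of the 4331 protein-coding genes with an Input peak. The reverse order was found in 0 of 36 clustered genes, against 18.8% of all. With the area itself in place of its percentile, the counts were 26 and 0 of 36, against 3.67% and 20.3% of all genes with an Input peak. Among the 9 histone genes with an RNase only peak no such order was found in either direction, beside 0.753% and 2.81% of all genes with such a peak. Nor was a peak in 3 of 3 against 0 of 3 libraries, beside 0.327% and 0.949%. Among the 4 with an MDA5-protected peak none was found either, beside 2.3% and 6.91% for the order and 1.15% and 2.3% for 3 against 0 libraries.

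Hist1h1c and Hist1h2bc overlapped between genotypes by percentile. By area Hist1h2bc did not overlap (1034, 1047 and 1480 in Mavs-/- against 908, 997 and 910), while Hist1h2bk, which did not overlap by percentile, did. Hist1h1a, the gene of H1.1, stood at 96.7, 97.3 and 98.1 in Mavs-/- and at 92.7, 89.6 and 59.8 in Adar-deficient Input. Hist1h3c stood at 94.7, 93.7 and 96.5 against 89.4, 88.0 and 79.7, and Hist1h2bl at 90.3, 95.2 and 95.9 against 85.7, 87.4 and 68.8. In each of these genes the genotypes did not overlap. Hist1h4f and Hist1h1d also did not overlap, with lowest Mavs-/- values of 91.6 and 95.7 and highest Adar-deficient values of 84.2 and 94.1. Over the 15 clustered genes with a peak in all 6 Input libraries the median percentile was 91.6, 93.7 and 95.9 against 85.7, 85.0 and 71.2.

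A peak in 3 of 3 Input libraries of one genotype and 0 of 3 of the other was found for H3f3a, Hist1h2ag, Hist1h2bm and Hist1h3g, each in Mavs-/- only. Of all protein-coding genes with an Input peak, 0.831% showed that pattern, and 5.31% the reverse. H3f3a stood at 59.5, 62.1 and 76.6 in the Mavs-/- Input, and the Adar-deficient libraries had no Input peak but 3 of 3 RNase only peaks. Hist1h2bm, an H2B gene, stood at 67.1, 51.5 and 63.2, Hist1h2ag, an H2A gene, at 45.7, 36.7 and 46.7, and Hist1h3g at only 6.99, 15.2 and 21.6. The Hist1h3g peaks were thus weak in all 3 libraries.

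**Figure D5:**
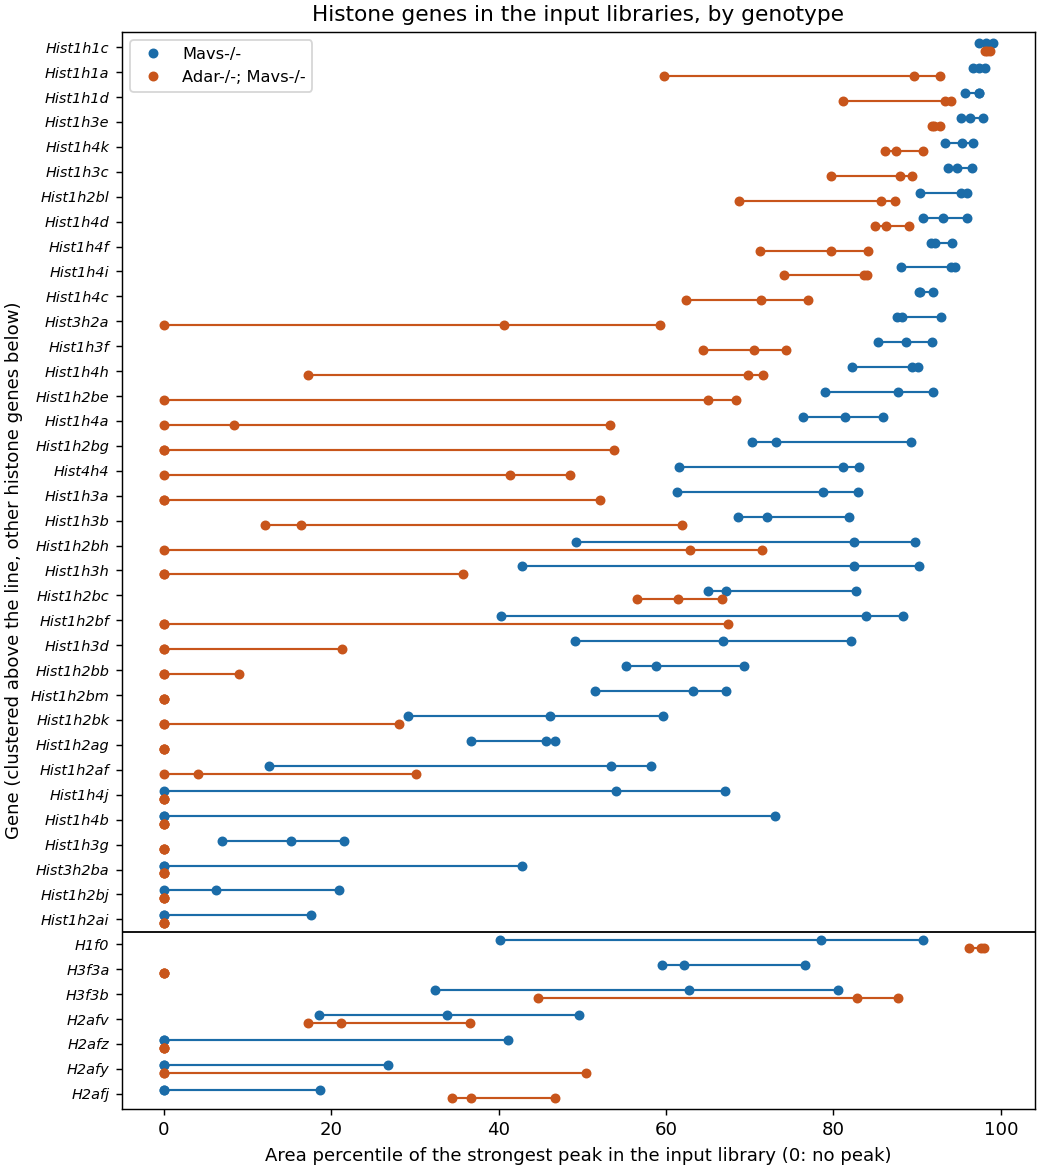
Area percentile of the strongest Input peak for each histone gene with an Input peak (rows; clustered genes above the line), one point per library, blue for Mavs-/- and orange for Adar-/-; Mavs-/-, lines spanning the 3 libraries, and 0 for no peak. In 26 of 36 clustered genes all blue points lie to the right of all orange points, and only H1f0 and H2afj, below the line, show the reverse.

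H1f0, whose product H1.0 is known for building up in cells that have stopped dividing, went the other way. Its Input percentiles were 40.2, 78.5 and 90.8 in Mavs-/- and 96.2, 97.7 and 98.0 in Adar-deficient liver, without overlap. H2afj had an Input peak at 18.7 in 1 Mavs-/- library and at 34.4, 46.7 and 36.8 in the Adar-deficient libraries. H3f3b (32.4, 62.7 and 80.5 against 82.8, 87.7 and 44.7) and H2afv (33.9, 18.5 and 49.6 against 17.2, 21.2 and 36.6) overlapped between genotypes. By family, the clustered H1 genes kept 3 of 6 with a peak in every Input library, the H4 genes went from 9, 8 and 10 to 8, 8 and 6 of 13, and the H2B genes from 9, 10 and 11 to 8, 4 and 2 of 18.

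Some marker genes of cell types differed between the genotypes. Of 7 erythroid markers, 4 (Hba-a2, Hbb-bs, Hbb-bt and Alas2) had a higher Input percentile in every Mavs-/- than in every Adar-deficient library, and 0 the reverse. Of the 4331 protein-coding genes with an Input peak, 3.56% were higher in every Mavs-/- library and 18.8% in every Adar-deficient library. Erythroid markers with a peak numbered 6, 6 and 7 of 7 in Mavs-/- and 5, 5 and 4 of 7 in Adar-deficient Input. The liver of mice of this age still makes blood cells. Of 4 stellate cell markers, Col1a1 and Col3a1 were likewise higher in Mavs-/-. Dcn overlapped, with no peak, 33.8 and 6.19 in Mavs-/- against 16.7, 42.1 and 54.3 in Adar-deficient Input, and Lrat had no peak. Of 9 hepatocyte markers 4 were higher in Adar-deficient Input. None of the 5 macrophage or 4 endothelial markers was without overlap, and the 3 lymphocyte markers had no peak. What part these cells have in the lower histone peaks was not tested. In bulk liver, fewer cells of a type and less RNA per cell cannot be told apart.

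Genes that act with histones gave few peaks. Of 14 genes of S phase and proliferation 1, 3 and 8 had an Input peak in Mavs-/- and 2, 2 and 0 in Adar-deficient liver. Mki67, a marker of dividing cells, did not overlap, with 70.0, 88.4 and 98.6 against 39.2, 13.0 and no peak. It was the only one of the 14 without overlap (1 of 14 lower and 0 of 14 higher in Adar-deficient Input). Of all protein-coding genes with an Input peak, 3.56% were lower and 18.8% higher. The 14 include Mcm2, Mcm4, Mcm5, Rrm2, Tyms and Cdk1, which had no Input peak, so the bases differ. Pcna, the sliding clamp of DNA replication, stood at 60.4 and 71.8 in 2 Mavs-/- libraries and at 29.6 and 12.0 in 2 Adar-deficient libraries. Of 13 genes for histone mRNA 3′ processing, Slbp included, only Sympk had any Input peak, in 2 Adar-deficient libraries. Of 13 histone chaperone genes 0 to 3 had a peak per Input library, and none was without overlap between genotypes.

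Histone genes of a family are near-identical, which limits how reads could be placed on them. The median clustered gene had 58.0% of its 75-base stretches, the read length, in no other annotated gene. For the 36 clustered genes with a peak the median was 63.6%, and for those without a peak 37.4%. By family the median of clustered genes was 99.3% for H1, 75.4% for H4, 55.7% for H2B, 41.0% for H3 and 32.0% for H2A. What part this has in the share of each family with a peak was not tested. In a part of the transcripts of detected clustered genes, 55.7% of 11423 75-base stretches mostly covered by Input peaks were found in no other gene. Of 1880 less covered stretches 12.9% were. Hist1h1d alone is 7425 bases long, with 98.5% of its stretches in no other gene and Input peaks over a small part. The 1880 thus leave out much of the annotated transcripts, and these shares do not hold for whole transcripts. Of the 36 clustered genes with a peak, 11 had under 50% of their stretches in no other gene, so their values are uncertain. Among them were Hist1h3h (6.53%), Hist1h2ag (22.4%), Hist1h2bl (26.7%), Hist1h2bk (27.4%), Hist1h4k (31.9%) and Hist1h3e (40.6%). The 10 Hist2 genes, none with a peak, ranged from 0% (Hist2h2aa2 and Hist2h3c1) to 100% (Hist2h2be and Hist2h4), with a median of 43.8%. How reads with several equal places were treated is not given in the sources used here.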

How the data were processed

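Peaks of 18 libraries (2 genotypes, 3 fractions, 3 replicates) were analysed. Per the study's methods, single-end reads of 75 bases from rRNA-depleted, strand-specific libraries were trimmed (Trim Galore 0.6.6), aligned to GRCm38 with NextGenMap and passed, strand by strand, to Genrich 0.6.1, with Input as control for the digested libraries; blacklisted and rRNA regions were left out by the authors. The deposited narrowPeak lists hold a signal column (the area, at least 500), −log10 p and −log10 adjusted p columns and a score column, one list per library, all set by the authors. Replicates are described as biological triplicates, but no label ties a library to an animal, so p-values measure the spread between these libraries.

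Here, with Python 3.11.15 and numpy 2.4.6, peaks were assigned to exons of protein-coding genes on the same strand. The reference transcript was the protein-coding one with the longest coding sequence, the shortest on ties. Groups were compared over libraries by exact permutation or sign-flip tests, two-sided, with Benjamini-Hochberg adjustment over 34 tests; medians needed 3 peaks per library. The scripts recovered peaks planted in simulated data. The alternatives concerned the overlap rule, strand, minimum area, equal peak numbers, transcript choice, left-out libraries and pairing. Pairing by number was checked on deviations from group means: correlations of same-numbered libraries were −0.0554 to 0.0181 for Input with RNase only, −0.0284 to 0.0136 for Input with MDA5-protected and 0.0889 to 0.139 for RNase only with MDA5-protected. Not every pair passed 0.1, so numbers were not taken as pairs. RNase only peaks often ended directly beside Input peaks of the same number, so this check cannot show that same-numbered libraries are unrelated. Tests paired by number are given below. Named genes were the 10 clustered and up to 8 other genes with a peak in the most libraries (ties by median area percentile), those with an MDA5-protected peak in 2 or more libraries, and those with a peak in 3 of 3 against 0 of 3 libraries of the genotypes; Hist3h2a, Hist4h4, Hist1h4a and H2afx were added after their values were seen. The members, lists and tests were chosen with earlier results of these data known.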

Additional observations from a re-analysis of the deposited data

Results flagged for a closer look

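Peaks outside the main measurement, which counted exonic peaks on a gene's own strand, were found over H3f3b and H2afz in digested libraries, where neither gene had a peak of that kind in the Input. H3f3b had a peak on the opposite strand in 4 RNase only libraries (Mavs-/- replicates 1 and 2, Adar-deficient replicates 2 and 3), each within chr11:116024099-116024161, between the first and second exons of its reference transcript, at percentiles of 26.6 to 50.8. H2afz had an opposite-strand peak in 1 RNase only library, chr3:137864846-137865054 in Mavs-/- replicate 3, at percentile 16.4, and an own-strand intronic peak in 1 MDA5-protected library, chr3:137864854-137864943 in Mavs-/- replicate 1, at 5.52. Both overlap the stretch of H2afz that had own-strand MDA5-protected peaks in 3 other libraries. Opposite-strand Input peaks were found over Hist1h1c and Hist1h3b in 1 library, Mavs-/- replicate 3.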

How the results depend on the processing

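Over 12 alternatives other than leaving out a library, 259 of 268 values for 34 results kept their direction, 7 reversed and 2 genotype differences were 0 (MDA5-protected, equal numbers; other histone genes in Input, minimum area); the stop codon and stem-loop positions, the clustered-minus-other comparisons of place and rank, the area in place of its percentile, and 2 of these alternatives (H2al genes left out, genes with at least 50% own 75-base stretches) were added after seeing the data. Reversed were, with an area of at least 1000, the RNase only shortfall of clustered genes (2.40 percentage points), the MDA5-protected value of other histone genes (−1.55), the distance of all histone peaks to the transcript end after RNase (−264 nt, from 40.4 nt) and the genotype difference in MDA5-protected libraries (−0.333 genes). With equal numbers of peaks, the MDA5-protected value of other histone genes (−1.63) and the relative centre of clustered minus other Input peaks (−0.0407) reversed, and with introns included the former was −3.90. The cause was not tested. Lost at p 0.05 were, with the minimum area, the clustered-minus-other distance (−421 nt) and share near the end (18.8 points), over 3 libraries only; with equal numbers, the clustered shortfall after RNase (−1.29), the distance (−514 nt), the share (14.4) and the area percentile (25.1); without H2al genes, the Input share difference (9.68); with genes of mostly own stretches, the shortfall (−3.09) and the share near the end (3.88). Gained were the clustered MDA5-protected shortfall with introns (−7.27), the minimum area (−1.55) or equal numbers (−1.63), the RNase only share difference with strands ignored (−7.36), MDA5-protected minus RNase only for other histone genes with the middle base (−2.33), strands ignored (−2.50) or equal numbers (−2.00), and the share of all histone peaks near the end after RNase with the minimum area (57.6) or equal numbers (28.4). The place measures of other histone genes after RNase lost it in all 3 cases with equal numbers, in 2 with the longest transcript and in 1 with 100 bases counted as reaching the end.

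With the replicate block, which pairs libraries by number, MDA5-protected minus RNase only for clustered genes (−1.67, exact p = 0.0625) and the relative centre after RNase (0.267, exact p = 0.0625) lost the call, the latter over 5 pairs that cannot go lower; of the place measures of other histone genes all 3 lost it over 3 pairs.

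Leaving out each library in turn, the clustered genotype difference in the Input ran from −15.3 to −8.83 genes, RNase only minus Input from −28.0 to −24.0, MDA5-protected minus Input from −29.6 to −25.6 and MDA5-protected minus RNase only from −1.83 to −1.43. The Input share difference ran from 24.6 to 29.9 points, the clustered shortfall after RNase from −6.73 to −4.74, that with MDA5 from −2.00 to −0.900, the clustered-minus-other distance from −852 to −755 nt, the share near the end from 16.1 to 21.0 points and the area percentile from 19.6 to 25.4; with 5 libraries the sign-flip test cannot go below 0.0625. Reversed were 2 values that had not passed the test as reported, the MDA5-protected value of other histone genes (−1.85 at the lowest, 3.00 at the highest) and their genotype difference in area percentile (−19.4 to 1.94).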
